A study of Mus musculus with 6 samples.

Results

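The cytosolic ribosomal protein genes were examined in the pre-limbic cortex (PLc) of mice given sub-chronic ketamine or saline. Members were the rows of the deposited expression table whose symbol begins with Rpl or Rps and a digit, or is Rplp0, Rplp1, Rplp2 or Rpsa, without the S6 kinases (Rps6k genes) and symbols holding "-ps", and whose mean over the 6 mice was at least 10 normalized counts. The rule met 80 of the 37620 rows, and 67 of these passed the mean of 10, out of 16127 genes that passed it in all. The 67 members were 33 large subunit genes, 25 small subunit genes, 4 paralogues, 4 copies that carry the symbol of their parent gene in the table and are called here by their annotated names, and Rps19bp1, which encodes a protein that binds Rps19 and is no part of the ribosome. The last member inside the threshold was Rpl9-ps4, with a mean of 15.1 normalized counts, and the first row outside it was Rpl3l, the striated muscle paralogue of Rpl3, with a mean of 6.28.

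All mice were C57Bl/6, 9 weeks old and of no labelled transgene. The saline group (mice 1, 6 and 10) received the vehicle and the ketamine group (mice 3, 5 and 9) received ketamine at 30 mg/kg, each by i.p. injection once a day for 5 days, and the PLc was dissected 2 days after the last injection. Each mouse gave 1 RNA sequencing library, so every p-value below measures the spread between 3 mice per group. In such dissected tissue, fewer cells of a type and less RNA per cell cannot be told apart.

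The ribosome is the particle that translates mRNA into protein. Its small subunit reads the message and its large subunit joins the amino acids, and each is built in the nucleolus from ribosomal RNA and a set of proteins that every cell needs in near-equal amounts. Their mRNAs are short and abundant, and most start with a terminal oligopyrimidine (TOP) motif, a cytosine followed by a run of pyrimidines, through which the mTOR pathway sets how much of each is translated. In neurons they are also found in dendrites and axons, where local translation takes place.

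The libraries held 26273436 to 32643726 reads assigned to genes. All 15 cortical excitatory neuron markers were detected, with summed levels of 203764 to 258800 normalized counts in saline mice and 121987 to 199536 in ketamine mice. Markers of neighbouring regions and cell types differed between mice. The 27 striatal markers summed to 110939 and 61022 in ketamine mice 3 and 5 and to between 20915 and 25911 in the other mice. The 20 olfactory bulb markers summed to 52294 in ketamine mouse 9, to 24015 and 20745 in ketamine mice 3 and 5 and to between 11419 and 15233 in saline mice. The 15 oligodendrocyte markers summed to 420390 in saline mouse 10 and to between 49487 and 179498 in the other mice, and the 10 choroid plexus and ependymal markers were also highest there, at 3601 against 139 to 1089. The 5 red blood cell markers detected summed to 8996 in ketamine mouse 9 and to between 949 and 1904 elsewhere. Neuroblast and dividing cell markers summed to between 4341 and 7743 in ketamine mice, above the 2117 to 2345 of saline mice. Astrocyte (112411 to 151726), microglia (15188 to 18544) and vascular markers (13782 to 16128) had narrower ranges. No listed marker with a row was at 0 in all mice.

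To ask whether sub-chronic ketamine changed ribosomal protein mRNA, the groups were compared gene by gene across all 16127 genes. No ribosomal protein gene passed the test after adjustment over all of them. The 58 genes for proteins of the 2 subunits differed by a log2 fold change of -0.10 (Rpl38) to 0.21 (Rps9), with standard errors of 0.18 to 0.29 (median 0.23), and in all 58 the ranges of the groups overlapped. At an adjusted p of 0.05 limma called 0 of the 67 members (0% of all genes) and edgeR called 0 (0% of all genes), while DESeq2 called 0 members and 1.13% of all genes (0.899% higher in ketamine mice, 0.229% lower). The lowest adjusted p of any member was 0.858 in limma, 0.783 in edgeR and 0.718 in DESeq2. Without adjustment, limma gave a p under 0.05 for 1 member, the copy Gm2000, which was higher in ketamine mice, and for 5.81% of all genes (3.44% higher, 2.37% lower). edgeR and DESeq2 also gave 1 member each, against 6.24% and 6.54% of all genes.

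The direction was higher in ketamine mice for 58 of the 67 members, against 47% of all genes, but the difference was small. The median log2 fold change was 0.064 over the members and -0.014 over all genes tested. The members' median SD within groups was 0.34 on the log2 scale, against 0.27 over all genes. The split of the directions rested on single mice. Without ketamine mouse 9, 4 members were higher and 63 lower, with a median of -0.15. Without saline mouse 10, 66 were higher and 1 lower, with a median of 0.22. Without both, an alternative added after the data were seen, 24 were higher and 43 lower, with a median of -0.028. Leaving out saline mouse 1 or saline mouse 6 left 33 and 39 members higher, and leaving out ketamine mouse 3 or ketamine mouse 5 left 66 higher in each case. The plot of change by level shows the subunit genes as a tight band near 0 at the abundant end of the transcriptome.

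**Figure D1:**
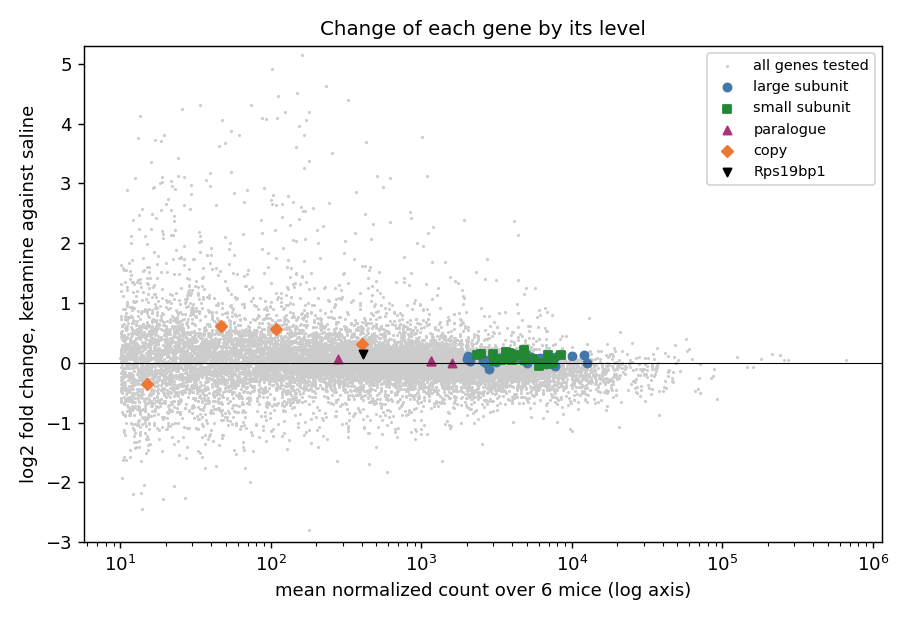
Log2 fold change of ketamine against saline (vertical axis) by mean normalized count over 6 mice (log horizontal axis) for all 16127 genes tested (grey) and for the 67 members by class (coloured). Subunit genes lie between -0.10 and 0.21, while 3 of the 4 copies lie above 0.3 at low counts.

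The ribosomal protein genes moved together from mouse to mouse. Ketamine mouse 9 had the highest level of all 67 members (100% of them, against 29.4% of all genes). The share among other genes varied with exon length. Of genes that are not members, mouse 9 was highest in 491 of 1021 with under 1000 exon bases. In the next class of length, with a median of 1539.5 exon bases, it was highest in 1324 of 2516. With 8000 or more it was highest in 70 of 1605. The members had a median of 1403 exon bases. Saline mouse 10 came second for 62 members, including all 58 subunit genes, and this order of mouse 9 first and mouse 10 second held for 11.1% of all genes. Ketamine mouse 5 was the lowest for 50 members. Relative to each gene's mean over the 6 mice, the median log2 level of the members was -0.18, -0.16 and 0.24 in saline mice 1, 6 and 10, against -0.11, -0.27 and 0.49 in ketamine mice 3, 5 and 9. The high and low mice were thus split across the groups. The members together took 0.800%, 0.859% and 1.16% of all normalized counts in the saline mice (mean 0.940% ± 0.194, SD, n = 3) and 0.935%, 0.805% and 1.42% in the ketamine mice (1.05% ± 0.324, SD, n = 3).

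**Figure D2:**
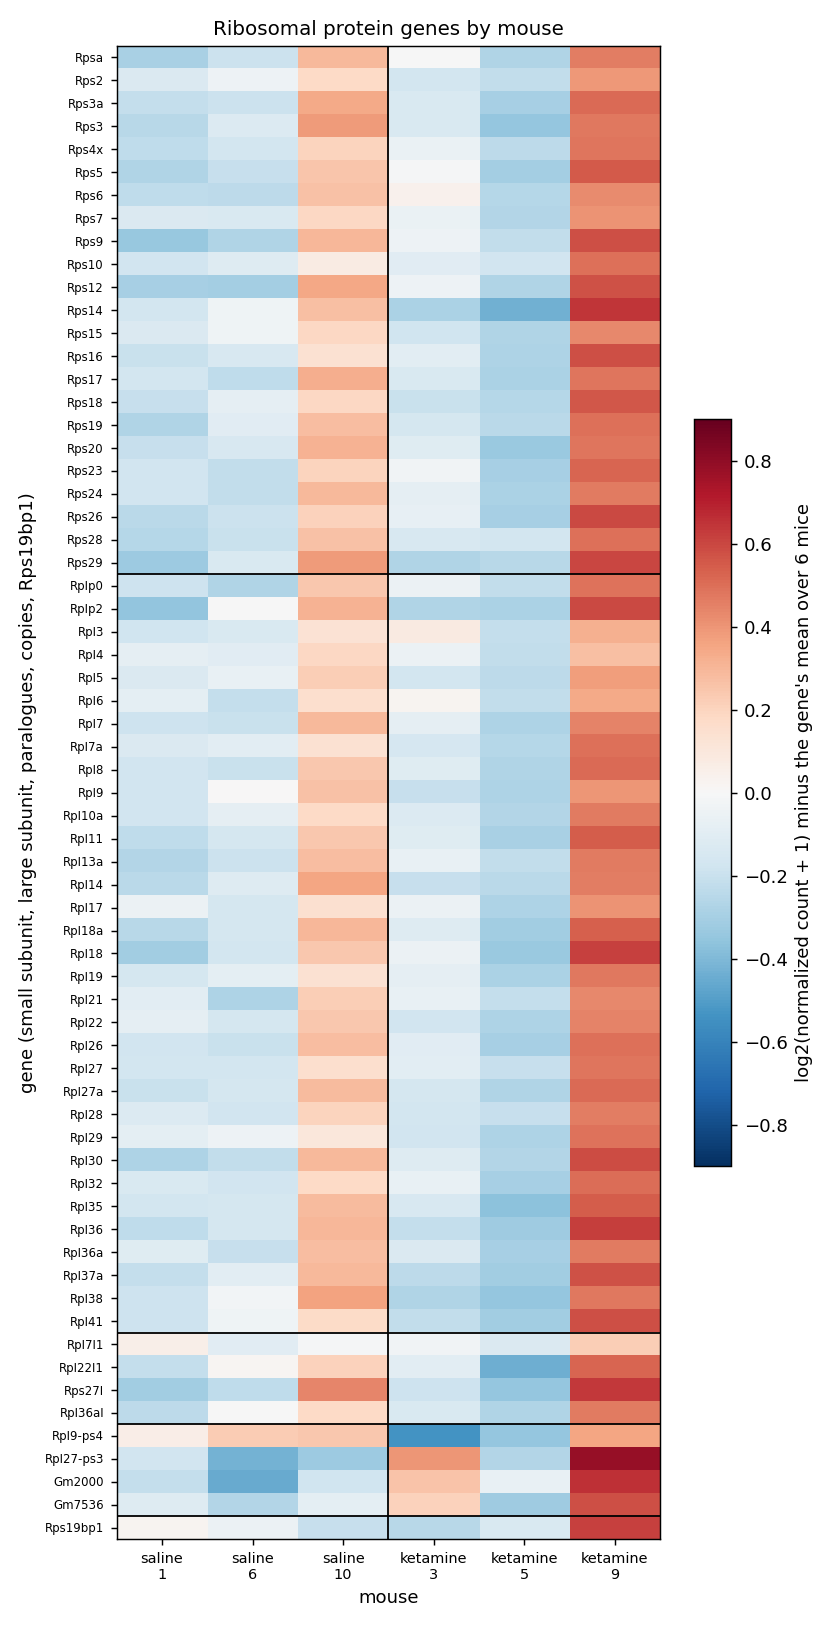
Level of 65 of the 67 members in each mouse, as log2(normalized count + 1) minus the gene's mean over 6 mice (colour), with genes in rows by class and mice in columns by group. Saline mouse 10 and ketamine mouse 9 are high for nearly every subunit gene and the other 4 mice are low, and each group holds 1 high and 2 low mice.

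Ketamine mouse 9 exceeded the mean of the other two ketamine mice by a median of 1.61-fold over the members. Among the subunit genes this ran from 1.30-fold for Rpl3 to 2.0-fold for Rps14. Saline mouse 10 exceeded the mean of the other two saline mice by a median of 1.32-fold, from 1.12-fold for Rpl29 to 1.56-fold for Rps12 among the subunit genes. Most of the spread of the typical member was shared. The median SD over the 6 mice was 0.31 on the log2 scale. Once the median of the members in each mouse was subtracted it was 0.075 (0.066 for the subunit genes, at most 0.14). Less was shared in the copies, Rps19bp1 and Rpl7l1. By the same subtraction the SD went from 0.40 to 0.31 for Gm2000 and from 0.32 to 0.25 for Rps19bp1. For Rpl7l1 it rose from 0.13 to 0.21. The balance of the subunits hardly moved, since the median of the large subunit genes minus that of the small subunit genes lay between -0.024 and 0.042 in the 6 mice.

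With the shared level of each mouse removed, 52 of the 58 subunit genes differed between the groups by less than 0.1 on the log2 scale. Among the 6 others, Rps9 (0.14) and Rps12 (0.10) were relatively higher in ketamine mice, and Rpl38 (-0.17), Rpl9 (-0.13) and Rps14 (-0.12) were relatively lower. These differences are a description, since the members that set the shared level are the same genes.

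The mice with high ribosomal protein mRNA also differed in other measures. Members have short transcripts, with a median of 1403 exon bases against 3527 over all genes tested. In ketamine mouse 9, genes that are not members and have under 1000 exon bases had a median log2 level of 0.33 above their mean over the 6 mice, and those with 8000 or more had -0.43. In ketamine mouse 5 the order was turned round, at -0.18 and 0.21. In saline mouse 10 the short genes were at 0.076 and the long ones at -0.058, while the members were at 0.24 there. Ketamine mouse 9 was also the mouse with the highest red blood cell and olfactory bulb markers, and with the highest neuroblast and dividing cell markers (7743). Saline mouse 10 had the highest oligodendrocyte and choroid plexus markers, as given above. The part of transcript length and of these cell types in the members' levels was not tested.

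**Figure D3:**
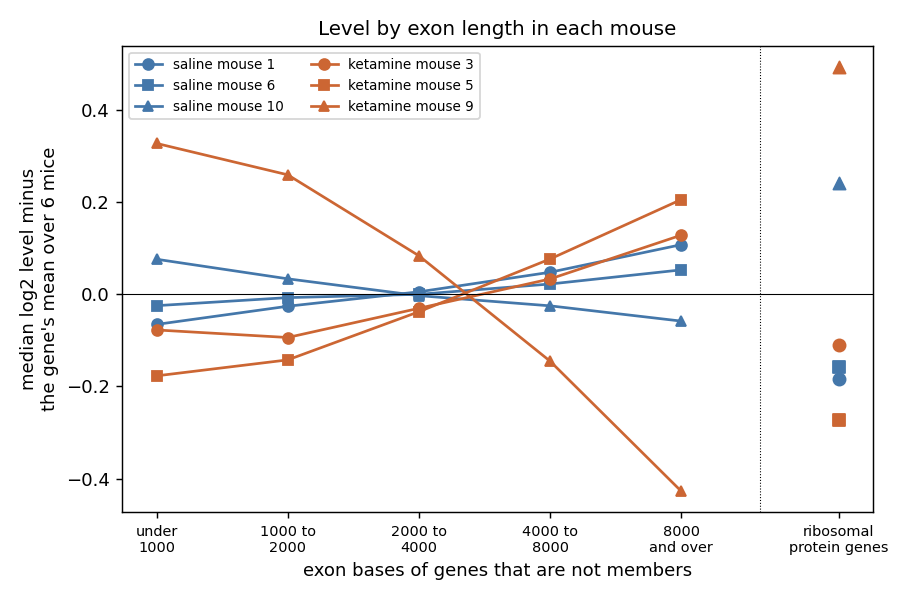
Median log2 level minus the gene's mean over 6 mice (vertical axis) in each mouse, for genes that are not members in 5 classes of exon length (lines) and for the 67 members (points at the right). Ketamine mouse 9 falls from 0.33 in the shortest class to -0.43 in the longest, and in saline mouse 10 the members stand at 0.24 while the shortest class is at 0.076.

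Among the proteins of the small subunit, Rps6 is the one whose phosphorylation by S6 kinases is widely read as a marker of neuronal activity and mTOR signalling. Its mRNA was at 3576, 3557 and 5040.5 normalized counts in saline mice 1, 6 and 10, against 4294, 3503 and 5615 in ketamine mice 3, 5 and 9. Saline mouse 10 and ketamine mouse 9 were the high samples and the groups overlapped, with a log2 fold change of 0.13 ± 0.22 (SE, limma adjusted p = 0.999). Rpsa, which is also known as a laminin receptor, was at 6754, 7231 and 10114 in saline mice, against 8221, 6827 and 11373 in ketamine mice, again with the same pair of high mice (0.12 ± 0.24).

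Rps9, a protein of the decoding side of the small subunit, had the largest difference of any subunit gene. It was at 3715, 3900 and 5765 normalized counts in saline mice, against 4550, 4021 and 7029 in ketamine mice. The 2 lower ketamine mice lay between the saline values, and the log2 fold change was 0.21 ± 0.26 (SE, limma adjusted p = 0.999). Rps10, one of the genes mutated in Diamond-Blackfan anaemia, was at 2629, 2731 and 3121 in saline mice, against 2760, 2635 and 4181 in ketamine mice, where mouse 9 alone stood above the saline range (0.15 ± 0.20). Rps19bp1, the member that is no ribosomal protein, was at 407, 385 and 346 in saline mice, against 337, 363 and 614 in ketamine mice (0.16 ± 0.24), so it shared the high mouse 9 but not the high mouse 10. The exact permutation test over the mice gave p = 0.5 or more for each of the 58 subunit genes, where 3 mice against 3 allow no p below 0.1.

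Rplp0 and Rplp2 belong to the stalk of the large subunit, which recruits the elongation factors. Rplp0 was at 4226, 4002 and 5709 normalized counts in saline mice, against 4654, 4130 and 6761 in ketamine mice (log2 fold change 0.14 ± 0.23). Rplp2 was at 2106, 2682 and 3346 in saline mice, against 2236, 2210 and 4064 in ketamine mice (0.029 ± 0.28). In both genes the groups overlapped and mice 10 and 9 led their groups. The other stalk genes stand in the table under other symbols and so outside the rule. Rplp1 was at 8446, 8736 and 10592 in saline mice, against 8729.5, 7960 and 13279 in ketamine mice (0.080 ± 0.22). Rpl12 was at 4397, 4300 and 5106 in saline mice, against 3710, 3510 and 5610 in ketamine mice (-0.13 ± 0.20).

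Rpl3 and Rpl4 are core proteins of the large subunit, Rpl4 with a loop that lines the tunnel through which the new chain leaves. Rpl3 was at 10460 normalized counts in saline mouse 1, 10798 in saline mouse 6 and 12972 in saline mouse 10, and at 12510, 10215 and 14817 in ketamine mice 3, 5 and 9. It was the subunit gene in which ketamine mouse 9 stood out least, and the groups overlapped (0.12 ± 0.18). Rpl4 was at 11735, 11559 and 14129 in saline mice, against 11993, 10648 and 15012 in ketamine mice, with a log2 fold change of 0.00016 ± 0.18. Rpl5 and Rpl11, which bind Mdm2 and stabilise p53 when ribosome assembly is disturbed, had log2 fold changes of -0.019 ± 0.20 and 0.10 ± 0.24.

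Per kilobase of exon, the subunit genes had a median level of 3024 normalized counts, against 159 over all genes tested. Among the members, the highest levels per kilobase were those of Rps15 (10666), Rps23 (8809), Rpl4 (8799), Rpl3 (8789) and Rpl17 (7788). Rps15, which lies at the head of the small subunit, was at 6269, 6661 and 7812 normalized counts in saline mice, against 6059, 5693 and 9230 in ketamine mice (-0.012 ± 0.21). Rps23, a protein of the decoding centre, was at 4182, 4047 and 5427 in saline mice, against 4621, 3834 and 6799 in ketamine mice (0.13 ± 0.23). Rpl17, near the exit of the tunnel, was at 5739, 5349 and 6577 in saline mice, against 5739, 4929 and 7883 in ketamine mice (0.048 ± 0.20). The lowest members per kilobase were Rpl9-ps4 (22.4), Rpl27-ps3 (98.1), Gm2000 (243), Rps27l (344) and Rpl7l1 (447), which are copies and paralogues. Exon bases here are the union over all annotated transcripts, so a gene with retained introns in its annotation has a lower level per kilobase.

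The paralogues allow a comparison within the family, because each was set against its parent gene in the same mouse. Rpl22l1, the paralogue that can replace Rpl22 in the large subunit, was at 53.4%, 66.3% and 57.4% of the normalized counts of Rpl22 in saline mice, against 62.2%, 52.8% and 61.9% in ketamine mice. Rpl36al was at 50.5%, 63.5% and 51.5% of Rpl36a in saline mice, against 54.8%, 56.2% and 55.1% in ketamine mice. In neither pair did the groups separate (exact permutation test, two-sided, p = 1 for each). Rpl7l1 was at 24.5%, 22.2% and 16.7% of Rpl7 in saline mice, against 21.4%, 22.9% and 17.8% in ketamine mice (exact permutation p = 0.9). Its own level moved least of these, from 1062 to 1355 normalized counts over the 6 mice, and the share was lowest in mice 10 and 9. Rps27l, a p53 target, was at 8.37%, 8.16% and 9.34% of Rps27 in saline mice, against 8.09%, 8.47% and 8.41% in ketamine mice (exact permutation p = 0.7).

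The 4 copies are single-exon genes that carry the symbol of a ribosomal protein gene in the table, and they were the members with the largest differences. Gm2000 (ENSMUSG00000078193), a copy of Rpl35 on the plus strand of mm9 chromosome 1 from 158296169 to 158296613, was at 90.04, 76.2 and 92.2 normalized counts in saline mice, against 125, 99.7 and 166 in ketamine mice. All 3 ketamine mice lay above all 3 saline mice, the only member whose groups did not overlap, against 5.69% of all genes in this direction and 10.3% in either. The log2 fold change was 0.56 ± 0.24 (SE, limma unadjusted p = 0.0491, adjusted p = 0.858). As a share of Rpl35 it was 3.47% ± 0.506 in saline mice, against 5.04% ± 0.497 in ketamine mice (SD, n = 3 each, exact permutation p = 0.1, the lowest possible).

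The levels of the other copies overlapped between the groups. Rpl27-ps3 was at 39.3, 32.8 and 35.1 normalized counts in saline mice, against 58.7, 36.7 and 77.0 in ketamine mice (log2 fold change 0.61 ± 0.32). Gm7536, a copy of Rpl27a, was at 364, 328 and 370 in saline mice, against 456, 315 and 588 in ketamine mice (0.31 ± 0.23). Rpl9-ps4 was at 15.3, 17.4 and 17.6 in saline mice, against 9.79, 11.3 and 19.0 in ketamine mice (-0.36 ± 0.38). Its share of Rpl9 did not overlap between the groups, at 0.216% ± 0.0205 in saline mice, against 0.173% ± 0.0218 in ketamine mice (SD, n = 3 each, exact permutation p = 0.1). With 9.79 to 19.0 normalized counts of Rpl9-ps4 per mouse, this share rests on few reads. Shares of a parent were computed only for the paralogues and copies, so no rate over all genes stands beside it or the share of Gm2000. Reads of near-identical copies can be assigned to either gene, so the levels of these 4 genes are uncertain. In 19 further ribosomal protein pseudogenes outside the rule, 15 were higher and 4 lower with ketamine (median log2 fold change 0.26), and 0 passed the adjusted p in limma, edgeR or DESeq2 (1 with an unadjusted p under 0.05 in limma, against 5.81% of all genes, while 47% of all genes were higher).

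**Figure D4:**
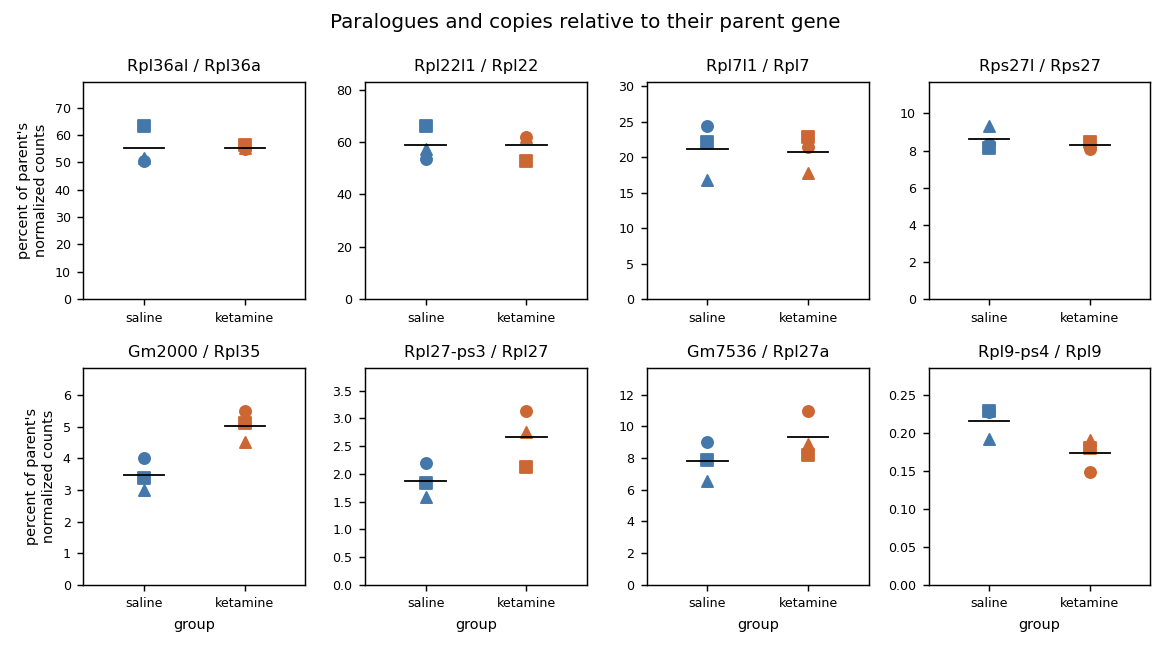
Normalized counts of each paralogue (upper row) and copy (lower row) as a percent of its parent gene in the same mouse, with 1 point per mouse and a line at the group mean (n = 3). Gm2000 is at 3.01% to 4.01% of Rpl35 in saline mice and 4.51% to 5.50% in ketamine mice, while the 4 paralogues overlap between the groups.

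Of 77 canonical ribosomal protein genes, 58 were members and the other 19 stood in the table under the symbol of another gene or pseudogene, 13 of the large and 6 of the small subunit. These 19 were not used by the rule and moved like the members. Their median log2 levels relative to the mean of the 6 mice were -0.19, -0.16 and 0.22 in saline mice 1, 6 and 10, against -0.093, -0.26 and 0.49 in ketamine mice 3, 5 and 9. Mouse 9 was first in 19 of 19 and mouse 10 second in 18. Their log2 fold changes ran from -0.13 (Rpl12) to 0.15 (Rpl31), with 16 higher and 3 lower and 0 called by limma, edgeR or DESeq2 (0 with an unadjusted p under 0.05 in limma). Of all genes, 47% were higher, 1.13% were called by DESeq2 and 5.81% had such a p in limma. Rps27a, which is made as a fusion with ubiquitin, was among the 19, at 3211, 3769 and 5148 normalized counts in saline mice, against 3769, 3118 and 6025 in ketamine mice (0.061 ± 0.28). Fau, which is made as a fusion with a ubiquitin-like protein, had a log2 fold change of 0.010 ± 0.27, and Gnb2l1, the scaffold protein Rack1 of the small subunit, had 0.15 ± 0.20.

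By list medians, other genes with TOP mRNAs and the elongation and initiation factors shared the high level of ketamine mouse 9. They shared that of saline mouse 10 less or not at all. Among 13 further genes with TOP mRNAs, 12 were higher and 1 lower in ketamine mice (median log2 fold change 0.091), and their median level was 0.33 above the 6-mouse mean in ketamine mouse 9 and 0.12 above it in saline mouse 10. Eef1a1, the elongation factor that delivers aminoacyl-tRNA, was at 51148, 48258 and 62242 normalized counts in saline mice, against 62063, 53145 and 69987 in ketamine mice (0.20 ± 0.20). Eef1a2, the form that replaces it in mature neurons, was at 33732, 30903 and 24182 in saline mice, against 24012, 27022 and 25918 in ketamine mice (-0.19 ± 0.18). Saline mouse 10, high for Eef1a1, was the lowest saline mouse for Eef1a2. Over the 10 genes of the elongation list 4 were higher and 6 lower (median -0.010), and over 38 of the initiation list 8 were higher and 30 lower (median -0.036). Their median levels were 0.26 and 0.19 above the 6-mouse mean in ketamine mouse 9, and 0.039 and 0.0037 in saline mouse 10. Both lists include regulators, such as Eef2k, the kinase of Eef2 (-0.24). Eef1a1, Eef1b2, Eef1g and Eef2 stand in both the elongation list and the TOP list. The lowest unadjusted p among initiation factors was that of Eif4g3, at 10360, 9465 and 7221 in saline mice, against 6993, 9297 and 5325 in ketamine mice (-0.34 ± 0.24, limma adjusted p = 0.999).

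The 76 mitochondrial ribosomal protein genes, which build the separate ribosome of mitochondria, included 43 that were higher with ketamine and 33 that were lower (median log2 fold change 0.0080). They were also high in ketamine mouse 9 (0.33 above the 6-mouse mean, highest in 69 of 76) but were at 0.036 in saline mouse 10, where the cytosolic members were at 0.24. Their median length was 1700.5 exon bases. Genes that are not members, in the length class that holds this value, had medians of 0.26 in mouse 9 and 0.033 in mouse 10. Of that class, 1324 of 2516 were highest in mouse 9. Of the 76, 1 gene higher and 1 lower did not overlap between groups, against 5.69% and 4.66% of all genes. The lower one, Mrpl48, was at 1731, 1643 and 1603 normalized counts in saline mice, against 1351, 1427 and 1474 in ketamine mice (-0.23 ± 0.11, limma adjusted p = 0.945).

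The 72 ribosome assembly factors did not follow mouse 9, with a median of 0.021 above the 6-mouse mean there. In ketamine mice 28 were higher and 44 lower (median -0.030), and 1 gene higher and 5 lower did not overlap between groups, against 5.69% and 4.66% of all genes. Wdr3, a factor of small subunit assembly, was at 671, 724 and 637 normalized counts in saline mice, against 576, 576 and 573 in ketamine mice (-0.23 ± 0.12, limma adjusted p = 0.969). Wdr12, of the PeBoW complex of large subunit assembly, was at 1094, 1101 and 917 in saline mice, against 889, 882 and 914 in ketamine mice (-0.21 ± 0.13). Of 19 genes of RNA polymerase I, which transcribes ribosomal RNA, 10 were higher and 9 lower (median 0.022). Of 27 regulators of ribosomal protein synthesis 12 were higher and 15 lower (median -0.043), and of 8 snoRNA host genes 4 were higher and 4 lower. Relative to the 6-mouse mean, the snoRNA host genes had a median of 0.40 in ketamine mouse 9 and 0.30 in saline mouse 10. In the other mice they were at -0.28 to -0.020. Their summed level was instead lowest in ketamine mouse 9, at 40909 normalized counts, and highest in saline mouse 6, at 63872. Snhg11 made up most of that sum and was lowest in ketamine mouse 9, at 35527. Gas5 stands in both this list and the TOP list. The RNA polymerase I genes were at 0.18 in mouse 9 and 0.038 in mouse 10, and the regulators at -0.10 and -0.0082. None of the genes in these translation, assembly and mitochondrial lists passed the adjusted p in limma or DESeq2, and 0 of them had an unadjusted p under 0.05 in limma, against 1.13% of all genes called by DESeq2 and 5.81% of all genes with such a p.

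**Figure D5:**
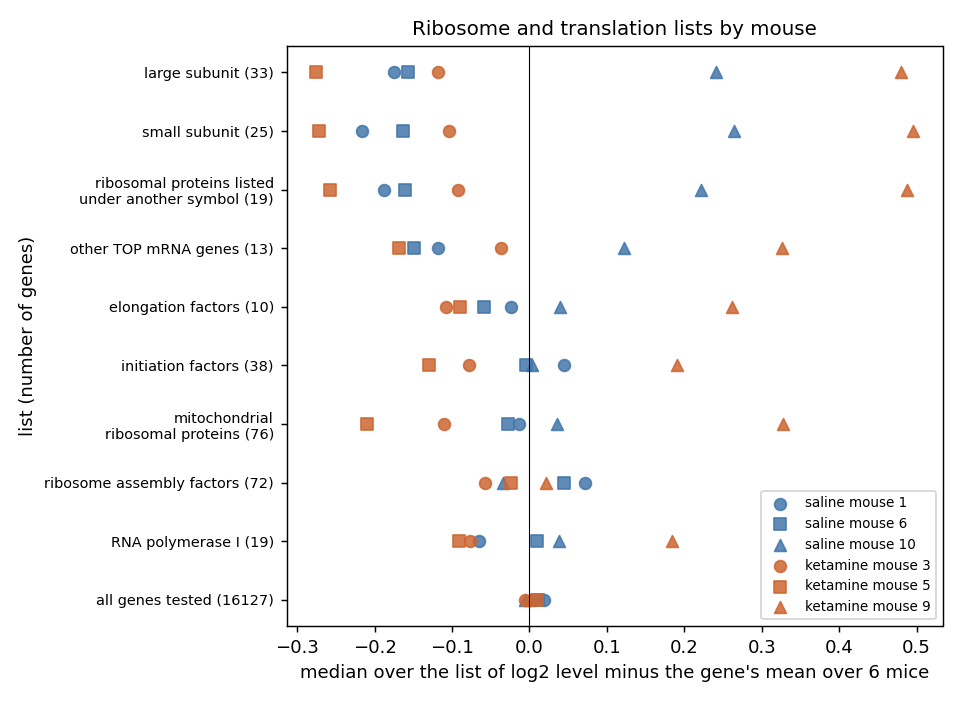
Median over each list of the log2 level minus the gene's mean over 6 mice (horizontal axis), with lists in rows and 1 point per mouse, blue for saline and orange for ketamine. Both subunits and the ribosomal proteins under another symbol show mouse 9 near 0.49 and mouse 10 between 0.22 and 0.26, while assembly factors and all genes lie close to 0.

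The members share features that the rule did not use. They lie on 18 chromosomes, with the most (12) on chromosome 7, and 66 of the 67 were found in the mm9 annotation used here. Of these 66, 22 (33.3%) hold an annotated snoRNA gene on the same strand, 48 snoRNA genes in all, against 1.96% of all genes tested. Rpl4 holds 5, and Rpl13a and Rpl7a hold 4 each. Their longest annotated transcripts in exons have a median of 5 exons, against 8 over all genes.

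The annotated starts were searched for a TOP-like run of pyrimidines. RefSeq promoters (GRCm38.p6) were found for 45 members, with 52 annotated starts. A cytosine followed by at least 5 cytosines or thymines, read on the coding strand from 20 bases before to 30 bases after the start, was present at 65.4% of these starts, at 34.2% of those of the other genes tested and at 34.3% of all starts in the table. The windows below run from 10 bases before the annotated start to 20 bases from it, with such runs in capitals. They are examples picked from the genes named in the text, most of them with a run, so they do not give the share among members. Rplp0 and Rpl36al are shown as members whose annotated start has none. Other described members, such as Rpsa, Rpl4 and Rps15, also had no run in this shorter window and are not printed.
Rps6, chr4:86857348-86857377, minus strand: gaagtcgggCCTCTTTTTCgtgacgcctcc
Rps9, chr7:3704031-3704060, plus strand: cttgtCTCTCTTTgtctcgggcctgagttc
Rps10, chr17:27635225-27635254, minus strand: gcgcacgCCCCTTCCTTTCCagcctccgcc
Rplp2, chr7:141447641-141447670, plus strand: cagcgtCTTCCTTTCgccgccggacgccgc
Rpl13a, chr7:45128726-45128755, minus strand: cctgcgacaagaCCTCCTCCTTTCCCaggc
Rpl35, chr2:39005112-39005141, minus strand: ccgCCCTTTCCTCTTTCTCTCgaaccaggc
Rpl27a, chr7:109519185-109519214, plus strand: cgtgagCTCCTCCCTTTTCCCTTTCTgcca
Rplp0, chr5:115559457-115559486, plus strand: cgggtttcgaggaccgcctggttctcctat
Rpl36al, chr12:69184048-69184077, minus strand: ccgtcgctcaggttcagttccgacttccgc

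In the first 7 of these windows the run lies at or beside the annotated start, and all 7 genes had the same pair of high mice, as did Rplp0 and Rpl36al, which have no run there. From 250 bases before to 50 bases after each start, searched on both strands, CGGAAG (the core of ETS factor motifs) was present in 55.8% of the members' promoters, 26.6% of those of the other genes tested and 16.9% of all. GGGCGG (the GC box) was present in 55.8%, 59.8% and 35.7%, AAGATGG (the core of the YY1 motif) in 13.5%, 6.44% and 6.34%, and TATAAA in 11.5%, 7.44% and 13.6%. These motifs do not contain each other, and several starts of a gene can share bases. A match describes the letters only.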

How the data were processed

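RNA from the PLc of 6 mice (3 saline, 3 ketamine) was sequenced by the submitters. Per the labels and the study's methods, reads were aligned to mm9 with TopHat2 2.0.11, counted with HTSeq and analysed with DESeq2. The annotation and the strand setting are not given in the sources used here. The deposited signal values are read counts per gene after scaling by the authors, with 1 size factor for each library. Every value lay within 0.0051 (the rounding of the table) plus 1e-06 of itself of a whole multiple of 1 library-wide step (100% in each library), so reads were recovered, 26273436 to 32643726 per library, which set the counting precision.

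Genes with a mean of at least 10 (16127) were tested on log2(value + 1) with limma 3.58.1 (trend, two-sided, Benjamini-Hochberg over all genes, threshold 0.05). edgeR 4.0.16 (quasi-likelihood) and DESeq2 1.42.0 on recovered reads, other scalings, filters, pseudocounts and left-out mice were alternatives. The fits were tested on simulated data. Fold changes are on the log2(value + 1) scale, ± SE. Single values used exact permutation tests over mice.

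Gene positions, exon bases, names and snoRNA genes came from GENCODE M1 (mm9), start sequences from RefSeq. The mouse numbers differ between groups, so no samples were paired. Named genes were the stalk proteins, the 8 members of smallest unadjusted p, the 5 highest and 5 lowest per kilobase, paralogues with parents, Rps6, Rpsa, Rps27a, the members next to the threshold, Fau, Gnb2l1, and the 2 genes of smallest p in each other list, of which only some are printed, since a few are not reported here. Rps14, Rps12, Rpl29, Rpl38, Rpl9, Rpl7a, Rpl13a, Rpl5, Rpl11, Rpl31 and Rps19bp1 were named after their values were seen. The members and lists were chosen with earlier results of these data known.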

Additional observations from a re-analysis of the deposited data

How the results depend on the processing

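The number of members called, 0, was the same in limma under every scaling, filter, pseudocount and left-out mouse, and in edgeR and DESeq2. The median log2 fold change of the members, 0.064 as reported, was 0.070 with size factors over all genes tested, 0.071 with size factors over the other genes, 0.093 with upper-quartile scaling, 0.081 with TMM scaling, 0.11 in edgeR and 0.099 in DESeq2, and these fits had 61 to 64 members higher. Leaving out each mouse in turn gave -0.15 to 0.23. It reversed without saline mouse 1 (-0.00079) and without ketamine mouse 9 (-0.15), and without saline mouse 10 and ketamine mouse 9 together, added after the data were seen (-0.028). The cause was not tested. In that last fit limma called 587 of all 16127 genes and 0 members, with 1 member and 22.9% of all genes at an unadjusted p under 0.05. Without ketamine mouse 5, 3 members and 7.39% of all genes had an unadjusted p under 0.05. The log2 fold change of Gm2000 ran from 0.38 to 0.74 over its alternatives, with no adjusted p below 0.300.
No paired analysis was possible because the groups share no mouse number. The limits are the 3 mice per group, the differences between dissections in markers of other regions, reads shared by near-identical copies, and the deposited scaling, which gives shares of a library and not amounts per cell.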
